A study of Mus musculus with 18 samples.

Results

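SR proteins, heterogeneous nuclear ribonucleoproteins (hnRNPs) and the SF3 subunits of the spliceosome were followed as RNAs in mouse T cells, together with the protein-occupied sites of their mRNAs. The genes were taken by name from the protein-coding rows of the expression table: symbols starting with Srsf and a digit, symbols starting with Hnrnp except Hnrnpd, Tra2a and Tra2b, and symbols starting with Sf3a or Sf3b and a digit. This gave 41 genes of 22109 protein-coding rows (43432 rows in all), and 272 of 27729 peaks carried one of their names. All 41 carry the annotation of a protein-coding gene in GENCODE M21 (GRCm38).

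SR proteins carry a domain rich in arginine and serine and bind exons to recruit the splicing machinery, while hnRNPs coat nascent transcripts and often act against exon inclusion. SF3A and SF3B are the subcomplexes of the U2 small nuclear ribonucleoprotein that hold it at the branch point of an intron. Many of these genes hold ultraconserved exons whose inclusion lowers their own mRNA, and in T cells factors of this kind, Hnrnpll among them, set which exons of the phosphatase CD45 (Ptprc) are kept after activation.

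The 18 samples came from T cells of C57BL/6 mice, namely 8 RNA-seq libraries and 10 GCLiPP libraries (6 of Th2 cells and 4 of CD8 cells). GCLiPP maps protein-bound RNA without selecting a protein: after irradiation at 254 nm (8000 mJ), biotinylated proteins are captured and the RNA they shield from RNase is sequenced. T cells were cultured for 5 days, starting on antibodies to CD3 and CD28, Th2 cells with IL-4, anti-Ifn-gamma and IL-2 and CD8 cells with IL-12 and IL-2. They spent 4 h either with PMA and ionomycin, a drug pair that mimics signalling by the T cell receptor (stimulated), or without it (resting). Actinomycin D, which blocks RNA synthesis, had been added to the cells of 4 RNA-seq libraries and not to those of the other 4. The 8 groups of RNA-seq are thus CD8 or Th2, stimulated or resting, with or without actinomycin D, at 1 library each, so that p-values measure only the spread between these 8 libraries. The methods refer the treatment of the cells given actinomycin D to the mRNA decay assay, in which the drug was added after the stimulus for one of several times and the cells were then lysed in Trizol LS. Which of those times the libraries stand for, and whether their RNA came from Trizol LS or, like the other libraries, from lysates with the debris pelleted, is not stated. The drug and any difference in preparation cannot be told apart. In the study's methods the cells of a preparation were cultured from 3 mice.

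Each RNA-seq library held 24154849 to 31042504 gene reads, and the 41 genes together took 1.22 to 1.54% of the normalised reads. Summed over 6 genes each, CD8 markers reached 26883 to 40578 normalised reads in CD8 libraries, against 6905 to 8795 in Th2 libraries. Th2 markers summed to 637 to 829 in CD8 libraries, against 45778 to 127070 in Th2 libraries. The summed markers of B cells (153 to 1029 normalised reads), myeloid cells (114 to 479) and NK cells (68.4 to 183) were low in every library, and those of erythroid cells ran from 0.993 to 9.84. B cell sums were 795 to 1029 in Th2 libraries, against 153 to 257 in CD8 libraries. Myeloid sums were 276 to 479 with actinomycin D, against 114 to 177 without it. The part of B cells and myeloid cells in the results below was not tested.

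GCLiPP peaks were first read for the sites they cover. The peak list pools all GCLiPP libraries and was called inside 3′ UTRs, so position in a 3′ UTR is no finding and conditions cannot be compared. Each peak is 70 nt wide and carries a whole-number score from 13 to 22514 (median 24), whose meaning is not given in the sources used here. The windows below are the central 30 nt of the highest-scored peak of 11 genes, read from GENCODE M21 transcripts (GRCm38) in the sense of the mRNA. They are the 6 genes with the highest scores and 5 genes to which the RNA comparisons return. Capitals mark CUGUG, a word chosen after these windows were read.
Srsf2 (chr11:116850238-116850267, minus strand): uccugauugcucCUGUGuaaagaugccuug
Hnrnpa1 (chr15:103244586-103244615, plus strand): uuuuaaaugugCUGUGuaaaguuagucuau
Hnrnpc (chr14:52073904-52073933, minus strand): uuggaacauuuugCUGUGuaagaccuaaca
Sf3b4 (chr3:96177224-96177253, plus strand): ucagagaugcuguagcuugucaaggcuaau
Hnrnpl (chr7:28821942-28821971, plus strand): aaaauguuccuuuccuuuaugcuguugguu
Srsf3 (chr17:29041777-29041806, plus strand): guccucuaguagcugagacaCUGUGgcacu
Srsf1 (chr11:88052402-88052431, plus strand): auuaagguuagguagCUGUGuuacagaacu
Sf3a1 (chr11:4180522-4180551, plus strand): cagacugggCUGUGugagauaCUGUGuuuu
Sf3b5 (chr10:13008956-13008985, plus strand): uuggCUGUGucgccugaccugcguaccugu
Srsf7 (chr17:80201324-80201353, minus strand): uggguuuuuauuugacacguuuaaauaaaa
Tra2b (chr16:22246505-22246534, minus strand): uauucugaagaucgaagcCUGUGuguaaaa

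Of the 41 genes, 40 had at least 1 peak (97.6%), and Srsf12 had none. Srsf12 was not among the 40 tested members, so that 100% of those had a peak. Among other tested protein-coding genes 61.6% had a peak (6433 of 10440), and among those with a mean between 2826 and 11540 normalised reads, the interquartile range of the splicing factor genes, 92.9% did (1817 of 1955). The median number of peaks was 4.5 in the 40 genes, against 5 in the other genes of that range that had a peak. The median of the highest score was 82.5 against 51. The 40 genes were not themselves limited to that range, so that both sets are only roughly alike in level. The share with a peak was thus closer to that of the other genes in this range than to that of all other tested genes.

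Srsf2, which encodes the SR protein SC35, held the highest peak of the group, with a score of 1572 (place 39 of 27729), centred 198 nt from the nearest annotated transcript end. Hnrnpa1, a shuttling hnRNP, followed with 760, Hnrnpc, which binds runs of uridine, with 502, Sf3b4, a subunit that contacts RNA near the branch point, with 434, Hnrnpl, which binds CA repeats, with 362, and Srsf3, the smallest SR protein, with 344. Scores of the highest peak ranged down to 17 in Sf3a3 and Hnrnph2. More than 20% of the sequence of Srsf2, Hnrnpa1 and Sf3b4, read as 50-nt words, recurs in other annotated transcripts. Whether this affects their peak scores was not tested. The most peaks were found in Hnrnpa3 (23), Srsf1 (20), and Hnrnpa0 and Srsf6 (18 each), none of which was among the 6 highest scores. The list marks some peaks with a cd8 prefix, whose meaning is not given in the sources used here. It stood on 16 of the 272 peaks (5.88%), all in Hnrnpa1, Srsf1, Srsf2 and Srsf3, and on 0.866% of all peaks. By role, the highest peak scored 502 in Hnrnpc, the 1 hnRNP C gene, and had a median score of 170.5 in the 6 hnRNP A/B genes, 133 in the 3 hnRNP U genes, 116 in the 10 SR genes with peaks, 57 in the 6 SF3B genes, 50 in the 5 hnRNP K/L/M/R genes, 39 in the 4 hnRNP F/H genes, 33 in the 3 SF3A genes and 29 in the 2 TRA2 genes. Across the 40 genes the highest score followed the mean RNA level only loosely (Spearman 0.30 over 40 genes of 1 peak list), given here as a description.

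**Figure D1:**
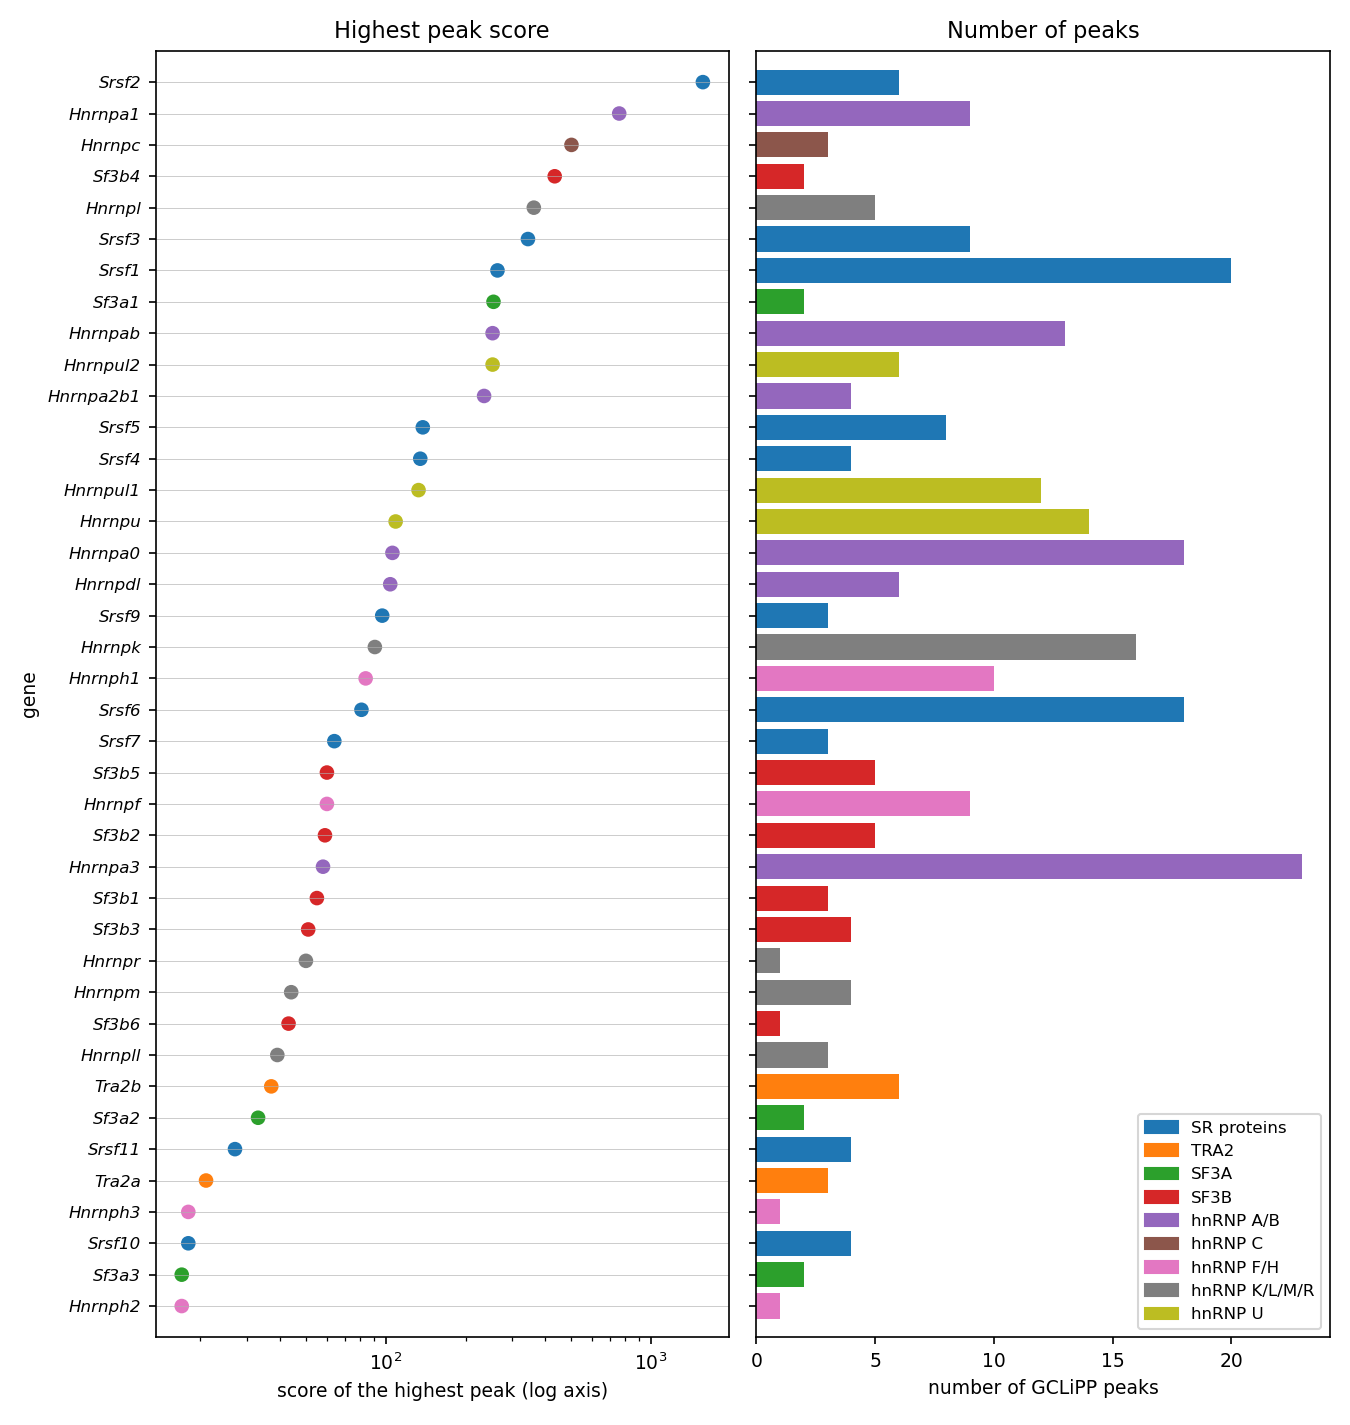
Highest peak score (left, log axis) and number of GCLiPP peaks (right) for the 40 genes with a peak, coloured by role. Srsf2 stands at the top with a score of 1572, whereas Hnrnpa3 has the most peaks (23) at a highest score of 58.

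The sequences of the peaks were compared with those of all peaks in the sense of the mRNA, on that strand only. No word searched contains another. Over 260 peaks of these genes and 26458 peaks of the list that lie within 1 annotated exon, the U run TTTTTT was found in 13.5% against 4.94%, the AU-rich core ATTTA in 13.1% against 7.90% and the CELF-type word TGTTTG in 7.31% against 4.07%. The C run CCCCC was found in 2.69% against 6.60%. In the highest peak of each gene, ATTTA was found in 7.69%, against 8.16% of the highest peaks of other genes. There TTTTTT was found in 15.4% against 4.11%, TGTTTG in 7.69% against 4.21% and CCCCC in 2.56% against 5.62%. The polyadenylation signal AATAAA was present in 8.85% against 6.56%, the Pumilio word TGTANATA in 2.69% against 1.72%, TAGGG, a word bound by hnRNP A1, in 3.46% against 4.51%, and GAAGAA, of the kind bound by TRA2 and SR proteins, in 1.54% against 2.68%. Neighbouring peaks of a gene can overlap in sequence, so that these are shares of windows, not of independent sites. CTGTG stood in 16 of the 39 highest peaks that could be read (41.0%), against 33.0% of the highest peaks of other genes, but over all peaks of the genes its share was 13.8%, against 23.8% in the whole list. In the windows printed above it is seen in Srsf2, Hnrnpa1, Hnrnpc, Srsf3, Srsf1, Sf3a1, Sf3b5 and Tra2b, while the Srsf7 window holds AAUAAA near its end, in a peak centred 21 nt from a transcript end.

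RNA levels were next compared between genes per kilobase of exon, averaged over the 8 libraries. The length is that of all annotated exons of a gene together, so that rarely used exons lower its value. Hnrnpab (9114 normalised reads per kb) and Hnrnpa2b1 (8962), both hnRNPs with RNA recognition motifs, lay far above the other members. Among the tested SR genes the order ran from Srsf2 (3617 per kb), Srsf1 (3137) and Srsf6 (2956) down to Srsf10 (557), and among SF3 genes from Sf3b1 (1799), the largest SF3B subunit, down to Sf3b4 (230) and Sf3b5 (130). Srsf12, at 18.7 to 53.6 normalised reads in its libraries, lay below the minimum mean of 50 and was not tested, so that 40 of 41 genes were. Some levels are uncertain. More than 20% of the 50-nt words of Hnrnpf, Sf3b4, Srsf4, Hnrnpa1, Hnrnpa3, Hnrnpab and Srsf2 recur in other annotated transcripts (61.9% in Hnrnpf and 45.3% in Sf3b4, largely processed pseudogenes), and whether the counting used strand is not given in the sources used here.

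The group moved less between conditions than most genes. The highest over the lowest library came to 1.26-fold to 3.18-fold in the 40 genes, with a median of 1.71-fold. The median was 2.56-fold over 10920 tested genes with no library at 0. It was 2.15-fold over 1955 other protein-coding genes with a mean inside the interquartile range of the 40 genes. Hnrnpa2b1 had 63847 and 65293 normalised reads in stimulated and resting CD8 cells, 54199 and 49600 in stimulated and resting Th2 cells, and 57815 to 63257 in the 4 libraries with actinomycin D. Of the 40 genes, 11 (27.5%) spanned more than 2-fold, against 70.6% of those 10920 genes and 57.9% of those 1955. The widest spans were those of Srsf3, Sf3b5 and Srsf7.

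**Figure D2:**
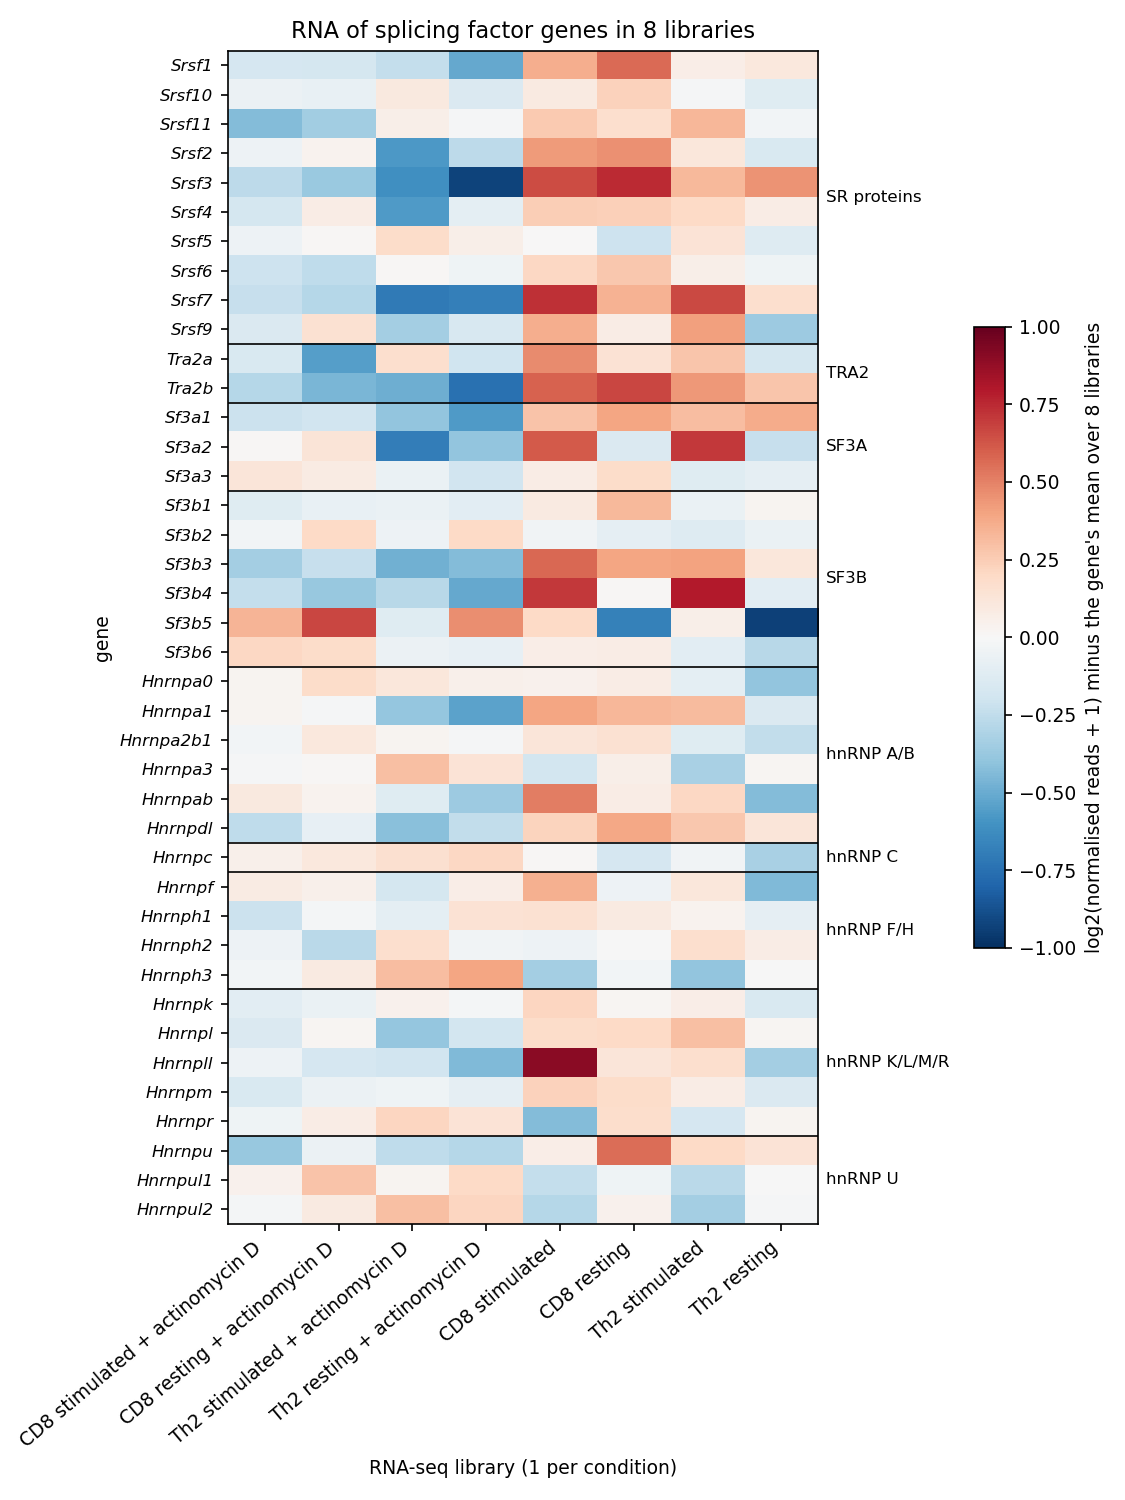
Heat map of log2(normalised reads + 1) minus each gene's mean over 8 libraries (columns) for the 40 tested genes (rows), grouped by role. Srsf3, Srsf7 and Tra2b are low in the 4 libraries with actinomycin D, and Sf3b5 is low in the 2 resting libraries without it.

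Stimulation of cells without actinomycin D raised a few members. limma called 7 of 40 genes higher (17.5%), against 14.7% of all 10972 tested genes, and 0 lower, against 13.4% of all. Of these, 3 are SF3 subunits, 3 are hnRNPs (Hnrnpll, Hnrnpab, Hnrnpf) and 1 is an SR protein (Srsf9). At an unadjusted p under 0.05 limma counted 3 genes lower, while edgeR and DESeq2 called 0 lower and 5 higher each. In either direction limma counted 11 members at that p, against 4642 of all 10972 tested genes. The median change was 0.08 on the log2 scale, against 0.03 over all tested genes. The calls depend on the scaling. When the libraries were scaled to ribosomal protein genes, whose RNAs rose with stimulation under the authors' scaling, the median of all genes moved by -0.56 and the 40 genes split into 0 higher and 22 lower, and with quantile normalisation into 3 higher and 5 lower. Among all genes 1616 were called higher and 1472 lower, against 550 and 5132 with ribosomal scaling and 1239 and 1745 with quantile normalisation. Relative to the median of all genes, the members' median was 0.05 under the authors' scaling, 0.05 with ribosomal scaling and -0.04 with quantile normalisation.

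The 3 SF3 subunits were Sf3b5, Sf3a2 and Sf3b4, among the least abundant SF3 RNAs per kilobase. Sf3b5, a small core subunit of SF3B, had 490 normalised reads in stimulated and 246 in resting Th2 cells, and 539 in stimulated and 294 in resting CD8 cells. Both stimulated libraries lay above both resting ones, a change of 0.93 ± 0.16 (SE) on the log2 scale or 1.91-fold (adjusted p = 0.00717, limma). Sf3a2, a zinc finger subunit of SF3A, had 1985 in stimulated and 1037 in resting Th2 cells and 1859 in stimulated and 1101 in resting CD8 cells, a change of 0.85 ± 0.21 (adjusted p = 0.0246, limma). Sf3b4 had 817 in stimulated and 438 in resting Th2 cells and 770 in stimulated and 476 in resting CD8 cells (0.80 ± 0.15, adjusted p = 0.0104, limma). In all 3 genes the stimulated libraries did not overlap the resting ones. The other SF3 genes did not pass the test: Sf3b1 changed by -0.17 (95% interval -0.47 to 0.14), and Sf3a1, the largest SF3A subunit, by -0.08 (-0.41 to 0.24). Sf3b6, which contacts the branch point adenosine, changed by 0.08 and Sf3b3, a large SF3B subunit, by 0.23.

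Hnrnpll, a repressor of CD45 exons in activated T cells, had 8968 normalised reads in stimulated and 5223 in resting CD8 cells, and 5409 in stimulated and 3807 in resting Th2 cells, a change of 0.64 ± 0.16 (adjusted p = 0.0254, limma). Its 2 stimulated libraries lay above both resting ones, although stimulated Th2 cells (5409) lay only a little above resting CD8 cells (5223). Hnrnpab, the most abundant member per kilobase, had 35426 in stimulated and 26214 in resting CD8 cells, and 28620 in stimulated and 18400 in resting Th2 cells. Here too the stimulated libraries lay above the resting ones (0.54 ± 0.12, adjusted p = 0.0196, limma). Srsf9 (0.53 ± 0.15, adjusted p = 0.0409) and Hnrnpf (0.48 ± 0.14, adjusted p = 0.0451) were nearest the threshold in limma, and neither was called by edgeR or DESeq2. In each comparison values are also given for the member of each role with the most normalised reads on average, not per kilobase, called the most abundant. Those of the roles other than SF3 did not pass: Srsf1, an SR protein that shuttles between nucleus and cytosol, changed by -0.12, Tra2a, a splicing activator, by 0.39, Hnrnpa2b1 by 0.05, Hnrnpc by 0.23, Hnrnph1, which binds G runs, by 0.09, Hnrnpk, which binds C-rich RNA, by 0.21 and Hnrnpul2 by -0.33. The 3 hnRNP U genes had negative values (-0.33 to -0.22), and the lowest value of all was that of Hnrnpr (-0.40, adjusted p = 0.0749, limma). Without the resting Th2 library or without the resting CD8 library 0 members were called higher. Without the stimulated Th2 library 3 were, and without 1 of the resting libraries with the drug 4 were. With the 4 untreated libraries alone, 2 (Sf3a2 and Sf3b5) were called, and 4 with no filter on low values.

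Among cells given actinomycin D, no member differed between stimulated and resting libraries past the threshold in limma, edgeR or DESeq2 (0 higher against 0.0911% of all tested genes, and 0 lower against 0%). At an unadjusted p under 0.05 limma counted 0 higher and 2 lower, and log2 changes ran from -0.46 (Sf3b5) to 0.38 (Tra2a). In either direction limma counted 1304 of all tested genes at that p. Of all 10972 genes, limma called 10. Sf3b5 had 432 normalised reads in stimulated and 648 in resting Th2 cells with the drug, and 595 in stimulated and 750 in resting CD8 cells with the drug. By the decay protocol the drug follows the stimulus. Here the stimulated libraries lay below their resting partners, opposite to the cells without the drug. Sf3b4 had 388 and 330 in stimulated and resting Th2 cells and 398 and 361 in stimulated and resting CD8 cells with the drug, a difference of 0.19 (95% interval -0.17 to 0.54). The most abundant members of each role ran from -0.22 (Hnrnph1) to 0.38 (Tra2a), with Srsf1 at 0.14, Sf3a1 at 0.08 and Sf3b1, Hnrnpc, Hnrnpa2b1, Hnrnpk and Hnrnpul2 between -0.05 and 0.01.

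The difference between both stimulation changes was tested as an interaction. limma called 1 of 40 members lower with actinomycin D than without (2.50%, against 7.44% of all tested genes) and 0 higher (against 7.06% of all). edgeR and DESeq2 also called 0 higher, and limma 0 at an unadjusted p under 0.05. In either direction limma counted 5 members at that p, against 3745 of 10972 tested genes. The gene was Sf3b5, whose change with stimulation was lower by 1.39 ± 0.22 on the log2 scale with the drug than without it (adjusted p = 0.0149, limma), in both cell types. Sf3a2 (-1.05 ± 0.30, adjusted p = 0.0550) and Srsf9 (-0.77 ± 0.22, adjusted p = 0.0562) came close to the threshold in limma. The most abundant members of each role ran from -0.31 (Hnrnph1) to 0.32 (Hnrnpul2), and their intervals held 0. Of the 40 genes, 7 were higher in both stimulated libraries without the drug and lower in both with it (17.5%), against 18.2% of all tested genes with this pattern. The reverse, lower in both stimulated libraries without the drug and higher in both with it, held for 3 members (Srsf1, Sf3a3 and Srsf3, 7.5%), against 15.8% of all tested genes. When the libraries were scaled to ribosomal protein genes, the median of all genes moved by 0.81 and the members split into 21 higher and 0 lower, against 5433 higher and 252 lower of all genes (775 and 816 under the authors' scaling). Without either resting untreated library, and without 3 of the 4 libraries with the drug, Sf3b5 was not called. Without the stimulated CD8 library 3 members were called lower, and without the stimulated Th2 library 2 were.

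**Figure D3:**
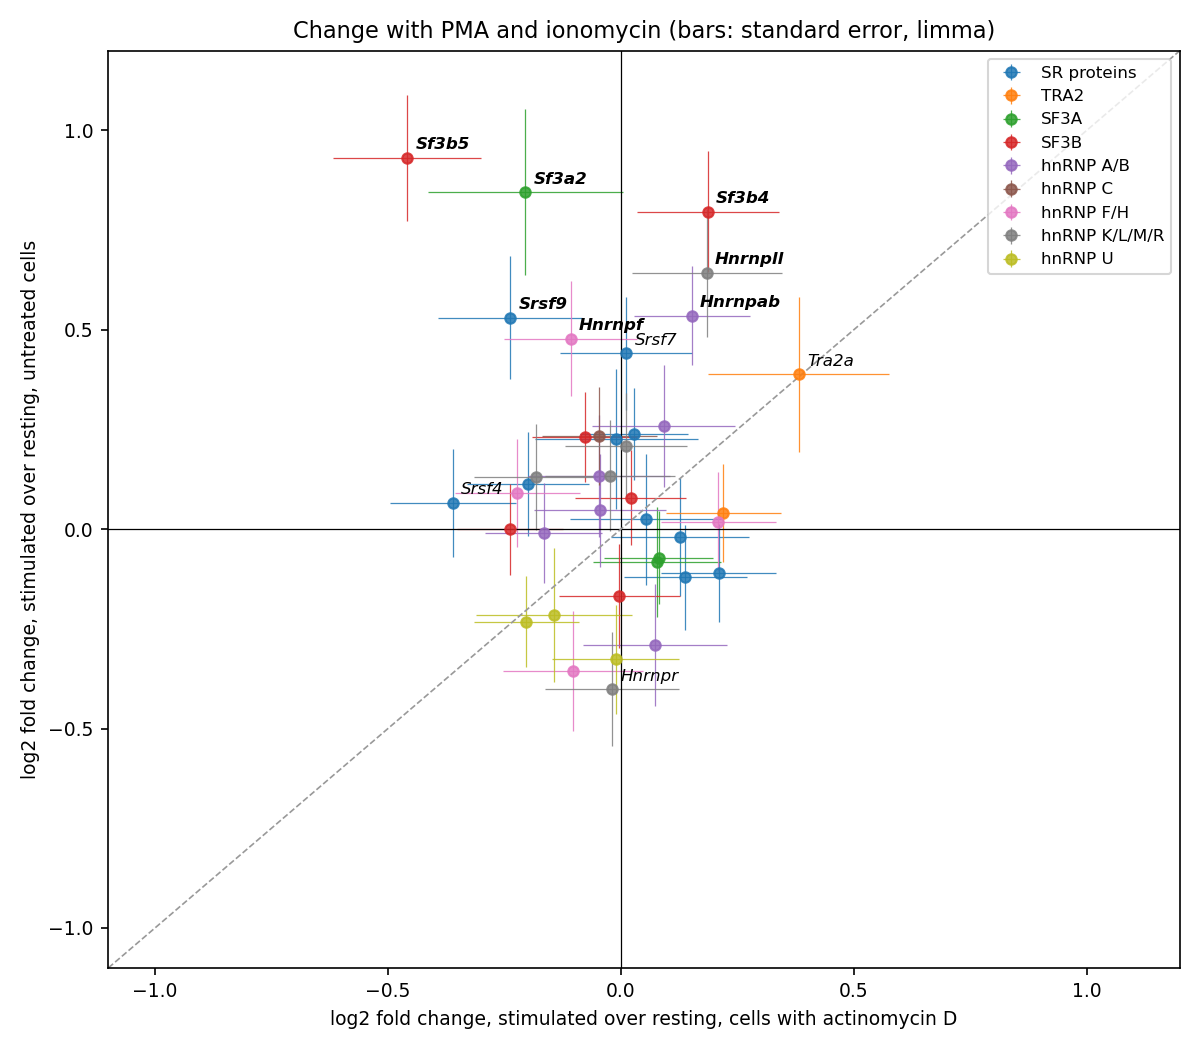
Log2 fold change of stimulated over resting cells with actinomycin D (x axis) and without it (y axis) for the 40 genes, with standard errors from limma; bold names were called without the drug. Sf3b5 lies at -0.46 and 0.93, farthest from the dashed line of equal change.

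Several members had less RNA, relative to other genes, in the libraries with actinomycin D than in those without it. Each of the 4 libraries with the drug was paired with its untreated counterpart. limma called 11 of 40 genes lower (27.5%, against 21.9% of all tested genes) and 0 higher (against 16.8%). At an unadjusted p under 0.05 limma counted 2 higher, and edgeR and DESeq2 called 0 higher. In either direction limma counted 17 members at that p, against 5493 of 10972 tested genes. Of the 11, 4 were SR genes, of 10 tested (Srsf3, Srsf7, Srsf1, Srsf2), 1 was Tra2b, 3 were SF3 genes (Sf3b3, Sf3b4, Sf3a1) and 3 were hnRNP genes (Hnrnpdl, Hnrnpu, Hnrnpa1). The median change was -0.18 in the members, against 0.00 over all genes. None of the 4 hnRNP F/H genes and none of the 5 hnRNP K/L/M/R genes was called in this fit. Of all tested genes it called 21.9% lower and 16.8% higher. Another limma fit, the mean term of the interaction model, called 16 members lower and 5 higher. Among these were Hnrnpl and Hnrnpll, lower, and Hnrnph3, higher. How many of all genes that fit called is not given here. The values are scaled by 1 size factor per library, so that a fall is relative to the other RNAs of that library.

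Srsf3 fell furthest. It had 4851 and 4488 normalised reads in stimulated and resting CD8 cells with the drug, against 9146 and 9744 without it. In Th2 cells it had 3796 and 3066 in stimulated and resting cells with the drug, against 7268 and 7945 without it. All 4 libraries with actinomycin D lay below all 4 without it, a change of -1.09 ± 0.13 (SE), so that levels were 2.12-fold lower (adjusted p = 0.00291, limma). Tra2b, a splicing activator that like SR proteins binds purine-rich exons, had 2715 and 2399 in stimulated and resting CD8 cells with the drug, against 4980 and 5249 without it. In Th2 cells it had 2359 and 1967 with the drug, against 4464 and 4003 without it. These groups also did not overlap, and the change was -0.99 ± 0.12 (adjusted p = 0.00291, limma). Its paralog Tra2a changed by -0.36 (95% interval -0.75 to 0.03), and its drop was 0.63 and 0.69 on the log2 scale in stimulated and resting CD8 cells, against 0.10 and 0.02 in stimulated and resting Th2 cells. The difference between the paralogs was not tested.

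Srsf7, an SR protein with a zinc knuckle, had 4468 and 4308 normalised reads in stimulated and resting CD8 cells with the drug, against 8689 and 6649 without it. In Th2 cells it had 3200 and 3266 with the drug, against 8283 and 5870 without it. The groups did not overlap (-0.95 ± 0.15, adjusted p = 0.00652, limma). The interaction with stimulation did not pass for Srsf7 (-0.43 ± 0.20, adjusted p = 0.176, limma). Sf3b3 had 9593 and 10347 in stimulated and resting CD8 cells with the drug, against 18100 and 16013 without it, and 8722 and 9007 in stimulated and resting Th2 cells with it, against 16055 and 13174 without it. Sf3a1 had 3758 and 3810 in stimulated and resting CD8 cells with the drug, against 5329 and 5746 without it, and 3327 and 2948 in stimulated and resting Th2 cells with it, against 5414 and 5627 without it. In both genes, and in Sf3b4, all 4 libraries with the drug lay below all 4 without it. Sf3b3 fell by 0.74 on the log2 scale (SE 0.12, adjusted p = 0.00693, limma), Sf3b4 by 0.71 (SE 0.19, adjusted p = 0.0283) and Sf3a1 by 0.68 (SE 0.13, adjusted p = 0.00984). These 6 are the largest falls among the members. Srsf3, Srsf7, Tra2b and Sf3b3 were called in all 16 alternatives, and Sf3a1 in 15 of 16. Srsf1 (-0.55 ± 0.12, adjusted p = 0.0168), Hnrnpdl, Hnrnpu, Hnrnpa1, Srsf2 and Sf3b4 were not called by edgeR or DESeq2, which each called the same 5 members (Srsf3, Tra2b, Srsf7, Sf3b3 and Sf3a1). Sf3b4 was called in 4 of 16 alternatives, with adjusted p-values up to 0.116.

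**Figure D4:**
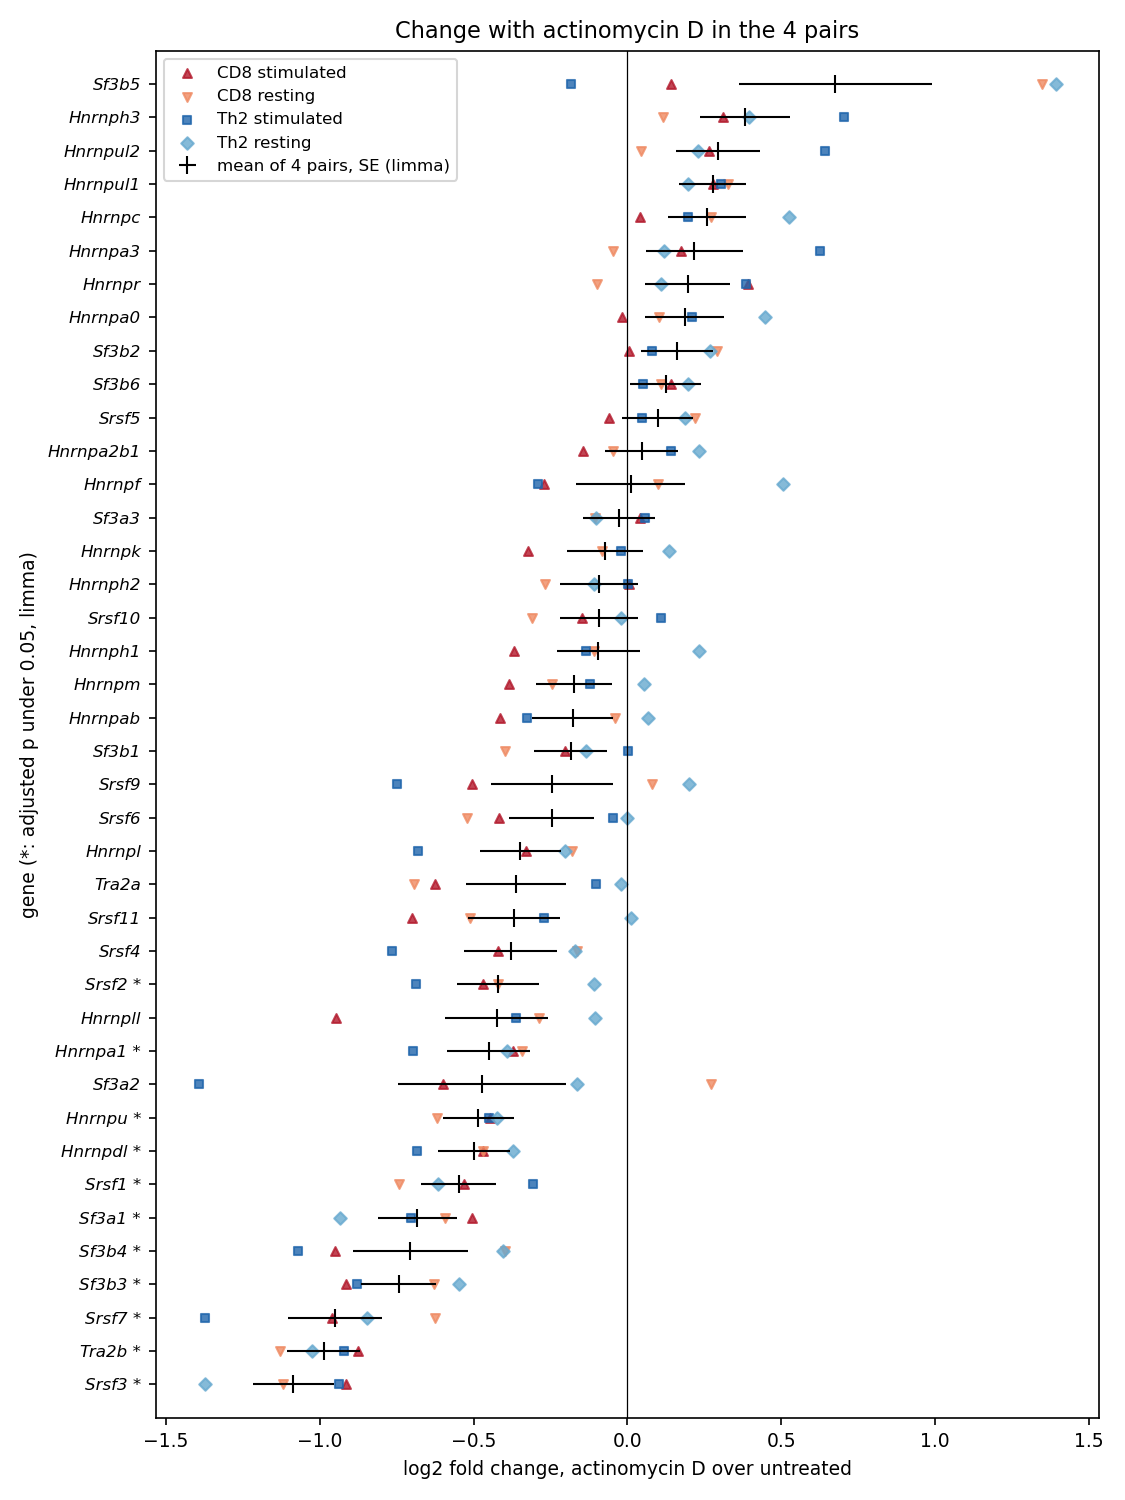
Log2 fold change of actinomycin D over untreated cells for the 40 genes, 1 point for each of 4 pairs of libraries, with the mean and standard error from limma (black) and a star for genes called. Srsf3, Tra2b and Srsf7 lie below 0 in all 4 pairs, with means of -1.09, -0.99 and -0.95, and Sf3b5 lies at 1.35 and 1.39 in the resting pairs and at 0.14 and -0.18 in the stimulated pairs.

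The remaining members spread around 0. Sf3b5 changed by 1.35 and 1.39 in the resting CD8 and resting Th2 pairs, against 0.14 and -0.18 in the stimulated CD8 and stimulated Th2 pairs, and over the 4 pairs did not pass (adjusted p = 0.131, limma). Hnrnpul1 and Hnrnpc were higher in all 4 libraries with the drug than in all 4 without it, which was true of 13.8% of all tested genes, while the reverse held for 10 members and 17.8% of all tested genes. Hnrnpul1 changed by 0.28 (adjusted p = 0.0879, limma) and Hnrnpc by 0.26 (adjusted p = 0.147, limma). The mean term of the interaction model called both higher, together with Hnrnph3, Hnrnpul2 and Sf3b5. The most abundant members of the other roles did not pass the test: Sf3b1 changed by -0.18, Tra2a by -0.36, Hnrnpa2b1 by 0.05, Hnrnpc by 0.26, Hnrnph1 by -0.10, Hnrnpk by -0.07 and Hnrnpul2 by 0.29. Without each library in turn, 5 to 8 members were called lower. They were 8 without the stimulated Th2 library with or without the drug, and 5 without any other. With quantile normalisation 7 members were called lower and 2 higher, the median of all genes moved by 0.13, and all genes split into 2597 higher and 2012 lower, against 1842 and 2403 under the authors' scaling. With ribosomal scaling 4 members were lower, with 197 and 1637 of all genes higher and lower.

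**Figure D5:**
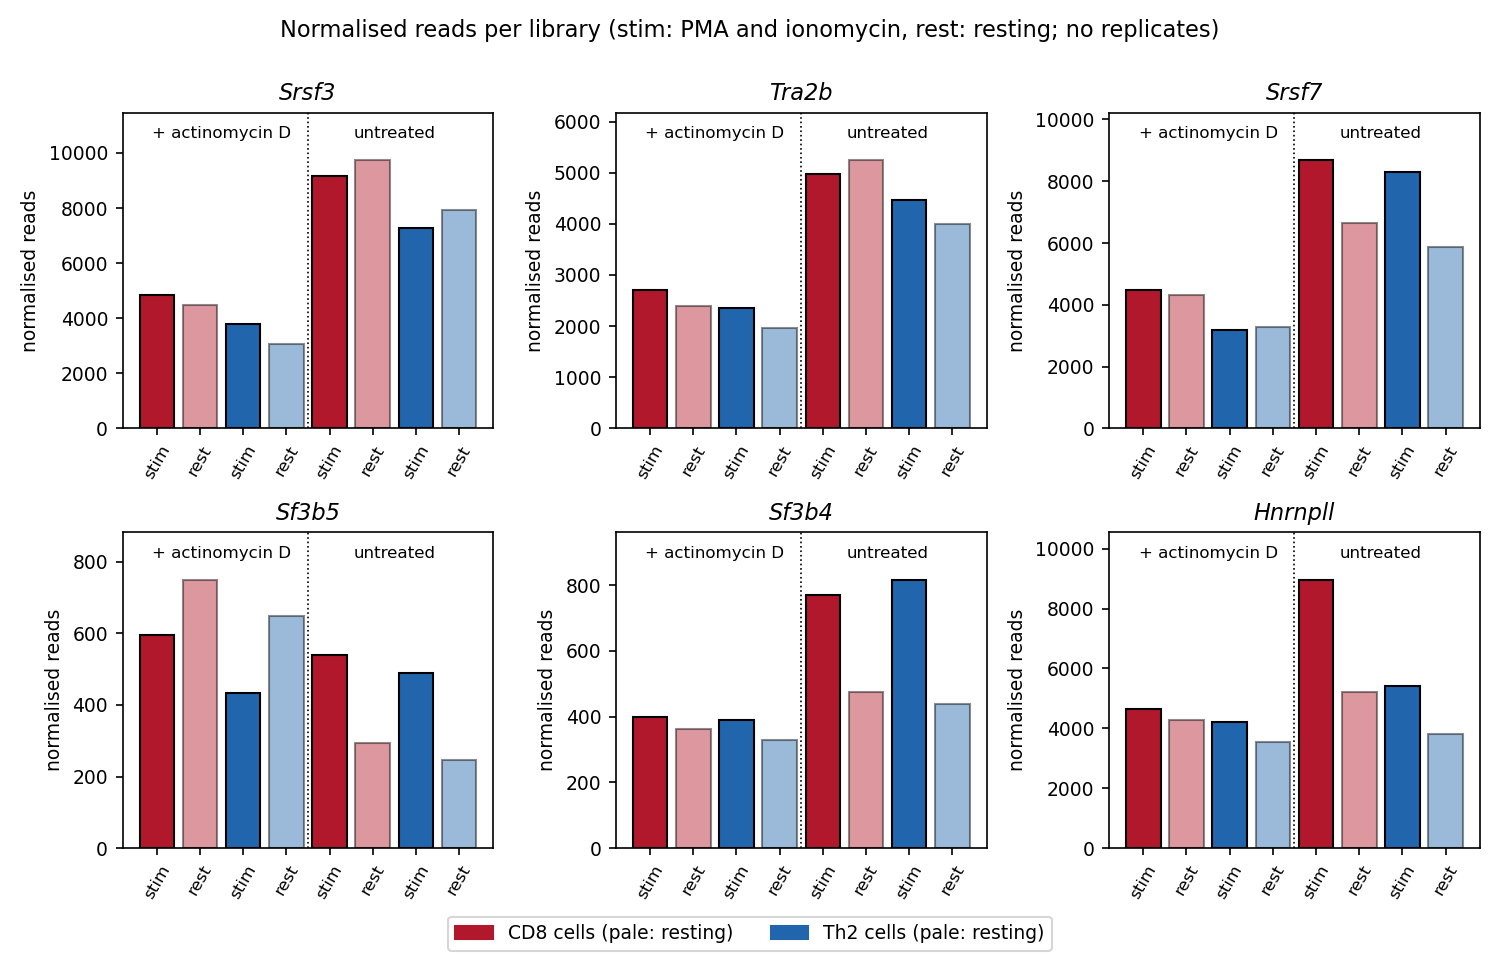
Normalised reads of 6 genes in each library (bars from 0), with actinomycin D on the left and untreated on the right of each panel, CD8 cells in red and Th2 cells in blue, and resting cells pale. Srsf3, Tra2b and Srsf7 are lower in every library with the drug, and Sf3b5 is lowest in resting cells without it.

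In the model with stimulation and the drug as separate terms, few members differed between CD8 and Th2 cells past the threshold. limma called 1 of 40 members higher in CD8 cells (2.50%, against 9.97% of all tested genes) and 0 lower (against 11.5% of all). At an unadjusted p under 0.05 limma counted 0 lower and 8 higher, and edgeR and DESeq2 called 0 lower. The 8 members stand beside 3841 of 10972 tested genes that limma counted at that p in either direction. Srsf2 had 13994, 14341, 10101 and 10719 normalised reads in CD8 cells that were stimulated, resting, stimulated with the drug and resting with the drug, against 11293, 9407, 7018 and 8717 in Th2 cells in that order. It was higher in CD8 cells in 4 of 4 matched pairs, although the groups overlap (0.44 ± 0.12, adjusted p = 0.0382, limma). An overlapping antisense gene, Mettl23, shares part of its sequence. Srsf3 (0.38 ± 0.12, adjusted p = 0.0542) and Hnrnpll (0.40 ± 0.15, adjusted p = 0.0996) did not pass. The most abundant members of each role ran from -0.09 (Hnrnpul2) to 0.29 (Srsf1, adjusted p = 0.115, limma). The members' median was 0.13, against 0.02 over all tested genes. Sf3a3 and Sf3b6 had all 4 CD8 libraries above all 4 Th2 libraries, as did 7.36% of all tested genes. The Srsf2 call was lost without any library except the stimulated Th2 one, which gave 2 calls, and in edgeR and DESeq2. DESeq2 called 1 other member higher, Hnrnpll, and edgeR 0. The number of calls depends on the model. A fit with matched state and drug as pairs called 7 members higher (Srsf2, Hnrnpa1, Hnrnpab, Hnrnpll, Sf3b6, Srsf1 and Srsf3). How many of all genes that fit called is not given here.

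The other spliceosome genes were read from 5 lists of 93 genes, of which 91 were tested. In cells without the drug, limma called 13 of 91 higher with stimulation (14.3%, against 14.7% of all tested genes) and 2 lower (2.20%, against 13.4%). The largest rises were those of Snrpa of the U1 particle (0.91 ± 0.23, adjusted p = 0.0245) and Ptbp1, a pyrimidine-tract binding repressor (0.75 ± 0.13, adjusted p = 0.00746, limma). Lsm4 (0.70) and Snrpb (0.70) of the Sm and LSm core also rose, and the 2 genes that fell were Srpk2, a kinase of SR proteins (-1.09), and Tia1, which binds U-rich RNA beside weak 5′ splice sites (-0.95). The median of the 91 genes was 0.16, against 0.03 over all tested genes. Among cells given the drug, limma called 0 of 91 in either direction between stimulated and resting libraries.

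With actinomycin D, limma called 21 of the 91 genes lower (23.1%, against 21.9% of all tested genes) and 7 higher (7.69%, against 16.8%). In the list of the U4/U6.U5 tri-snRNP and the Prp19 complex, 8 of 22 were lower (36.4%) and 0 higher, led by Prpf3 (-1.92 ± 0.13) and Prpf4 (-1.74 ± 0.12), proteins of the U4/U6 particle (adjusted p = 0.00137 each, limma). Among kinases and importers of SR proteins, 4 of 12 were lower (33.3%) and 1 higher. Dyrk1a changed by -1.94 ± 0.13, Clk1, which phosphorylates SR proteins in the nucleus, by -1.66 ± 0.22 and Clk4 by -0.96 ± 0.18. The change of Srsf3, the member that fell furthest, was -1.09 beside these. Between CD8 and Th2 cells, 7 of the 91 were higher in CD8 cells (7.69%, against 9.97% of all tested genes) and 3 lower (3.30%, against 11.5%), Snrpd1 of the Sm core (0.61 ± 0.12, adjusted p = 0.0111, limma) among those higher.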

How the data were processed

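RNA-seq reads were aligned to mm10 by the authors with STAR, and the deposited table holds a normalised signal per gene. Its values are gene counts divided by 1 size factor per library (100% were whole multiples of the library's step within 0.01 read), although the methods describe length-scaled values. The counting tool is not given in the sources used here. A second deposited table has the same 8 value columns and 12 columns of the authors' fold changes, which were not used. GCLiPP reads were aligned with Bowtie2, and the authors called peaks on pooled mouse experiments. The deposited peak list gives a score per peak.

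The log2(value + 1) of each gene was fitted with limma 3.58.1 (R 4.3.3), trend on, for 10972 of 43432 genes with a mean of at least 50 (23589 rows had a value above 0). Fold changes share this scale, on which low genes change less than in reads. A gene was called at an adjusted p under 0.05 (Benjamini-Hochberg, all tested genes). The stimulation changes and their interaction came from 1 model of 8 libraries with cell type as a term, the actinomycin change from 4 pairs, and the cell type change from an additive model. edgeR 4.0.16 and DESeq2 1.42.0 were run on whole reads recovered from 7 libraries, leaving out the stimulated CD8 library with actinomycin D, whose values were whole multiples too but of a step (0.993) so near 1 that the rule for accepting recovered reads was not met. The fits were tested on simulated data. Other alternatives were a pseudocount of 10, no filter, a mean of at least 250, quantile normalisation, scaling to 74 ribosomal protein genes, leaving out each library and other model terms.

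Named genes are, in each comparison, up to 6 called members in each direction with the largest change and the member of each role with the highest mean value, for peaks the 6 highest scores and the 3 genes with most peaks, and up to 3 called genes per list of other spliceosome genes. Sf3a2, Srsf9 and others near a threshold, and the CTGTG word, were picked after their values were seen. The members and lists were chosen with earlier results of these data known. Shared sequence was counted as 50-nt words found in GENCODE M21 transcripts of other genes.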

Additional observations from a re-analysis of the deposited data

Results flagged for a closer look

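Sf3b5, which encodes a small SF3B subunit, differed in its stimulation change between cells with and without actinomycin D, by a test of that difference. The difference between its log2 changes was -1.39 (limma interaction test over 8 libraries, adjusted p = 0.0149), with stimulated over resting changes of -0.58 in Th2 and -0.33 in CD8 cells with the drug, against 0.99 in Th2 and 0.87 in CD8 cells without it. Its level with the drug in resting cells (648 in Th2 and 750 in CD8 cells) was above that in resting cells without it (246 in Th2 and 294 in CD8 cells). Only 0.372% of the 50-nt words of its transcripts recur in other genes, and its mean over the 8 libraries was 499 normalised reads. Among 15 alternatives the gene was called in 9, with differences from -1.54 to -0.58 and adjusted p-values of 0.0488 in edgeR and 0.000908 in DESeq2. Each condition had 1 library, the length of the drug treatment of these libraries is not given in the sources used here, and no cause was tested.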

How the results depend on the processing

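No paired analysis was possible because the replicate numbers shared between groups belong to GCLiPP libraries, which have no values of their own in the pooled peak list, and the RNA-seq libraries carry none. The pairs named in the text are libraries matched on their conditions. Of 3120 values of single members under alternatives, 134 lost a call, 64 gained one and 17 turned round with a call in either fit. The other 2905 kept their side of the threshold. Among these, a change of sign without a call in either fit was not counted. With quantile normalisation, members called higher and lower with stimulation of untreated cells were 3 and 5 (7 and 0 as reported), interaction calls higher were 2, and actinomycin calls were 2 higher and 7 lower (0 and 11 as reported). Quantile normalisation gave 2 members higher in CD8 cells. With scaling to ribosomal protein genes they were 0 and 22 with stimulation, 21 and 0 for the interaction, 4 lower with actinomycin D and 0 for CD8 cells. Without a filter on low values, 4 members were higher with stimulation and 0 in CD8 cells. The 4 untreated libraries alone gave 2. The mean term of the interaction model gave 5 higher and 16 lower with actinomycin D, and matched pairs gave 7 higher in CD8 cells. How many of all genes these fits called is not given here. edgeR and DESeq2 gave 5 lower with actinomycin D, edgeR 0 for CD8 cells, and DESeq2 2 lower for the interaction. Over all 10972 genes, edgeR called 1227 higher and 1224 lower with stimulation (DESeq2 1662 and 1426), 125 and 185 for the interaction (DESeq2 754 and 1047), 631 and 1487 with actinomycin D (DESeq2 1455 and 2018), 563 and 873 for CD8 cells (DESeq2 965 and 1221) and 0 and 0 for stimulation with the drug (DESeq2 60 and 25). Of the members, 85.4% had a peak scored at or above the median of the list (97.6% with any peak). The median of all genes moved by -0.56, 0.25 and 0.81 for the stimulation, stimulation with drug and interaction changes under ribosomal scaling, and by 0.13 for actinomycin D under quantile normalisation. The members' median minus that of all genes for stimulation was 0.05 as reported, 0.05 with ribosomal scaling and -0.04 with quantile normalisation.

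Under ribosomal scaling, 4 members had a positive stimulation change without the drug, against 26 as reported. Those that turned round and were called in either fit were Hnrnph2 (-0.54), Srsf6 (-0.54), Tra2b (-0.52), Hnrnpa2b1 (-0.51), Srsf4 (-0.49), Sf3b6 (-0.48), Hnrnph1 (-0.47), Srsf2 (-0.45), Hnrnpf (-0.0828), Srsf9 (-0.0299) and Hnrnpab (-0.0251). Interaction values were positive in 38 members, against 15 as reported. Those that turned round and were called in either fit were Hnrnpk (0.61), Hnrnpm (0.65), Hnrnpdl (0.65), Hnrnpa2b1 (0.72), Sf3b6 (0.75) and Tra2a (0.80). Stimulation changes with the drug were positive in 38 members, against 18 as reported, with no member called in either fit. The median of all genes moved the same way under this scaling.

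Leaving out each library in turn gave, for stimulation of untreated cells, 0 to 6 members higher and 0 to 1 lower. For stimulation with actinomycin D it gave 0 to 0 in both directions. For the interaction it gave 0 to 0 higher and 0 to 3 lower. For actinomycin D it gave 0 to 1 higher and 5 to 8 lower, and for CD8 cells 0 to 2 higher and 0 to 0 lower. A left-out library leaves 1 sample in a state, which is then taken to vary like the others. Each condition has 1 library, and the lowest value of a tested member in any library was 246 normalised reads (Sf3b5).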
